A study of Mus musculus with 6 samples.

Results

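The genes described here encode 10 enzymes: Phgdh, Psat1, Psph, Srr, Shmt1, Gldc, Amt, Gcsh, Dao and Ddo. They make, convert or break down serine and glycine, except Ddo, which breaks down D-aspartate. They were named as a pathway, each was measured by the array row annotated to that symbol alone, and all 10 had such a row among the 17858 genes measured this way. Where a gene had several rows, the row was chosen by its mean value over all 6 arrays (the highest), which concerned Phgdh only. That mean does not use the difference between ages. The genes were nevertheless proposed with earlier results of these data known, so counts over them are descriptions.

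RNA came from the cerebellum of C57BL/6 mice, with no treatment and no engineered allele in the labels. The age groups were P7 (postnatal day 7) and 6wk (6 weeks), each with 3 arrays, and the series asks which expression changes go with changes in 5-hydroxymethylcytosine, an oxidised form of 5-methylcytosine. The arrays were Affymetrix mouse exon arrays and the deposited unit is log2 expression, where a difference of 1 is a doubling. The labels do not say that replicates came from separate animals. P-values therefore describe the spread among these arrays, which may be technical. The sex and the number of animals behind an array were not given in the sources used here.

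L-serine is made in the brain from a glycolytic intermediate by Phgdh, Psat1 and Psph in turn, and Phgdh is known from radial and Bergmann glia of the cerebellum. Serine hydroxymethyltransferases turn serine into glycine and back, and the glycine cleavage system, built from Gldc, Amt, Gcsh and Dld, degrades glycine in mitochondria. Serine racemase (Srr) makes D-serine, a co-agonist of NMDA receptors. D-amino acid oxidase (Dao) destroys D-serine in peroxisomes and is known for high activity in glia of the adult cerebellum, where D-serine is scarce in rodents after an early postnatal phase of higher levels. D-aspartate oxidase (Ddo) does the same for D-aspartate.

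Among the breakdown enzymes 3 rose between P7 and 6wk: Dao by 11.4-fold, Ddo (for D-aspartate) by 2.22-fold and Amt by 1.32-fold. Among the synthesis enzymes Phgdh, Psat1, Psph and Srr 0 passed the test with all arrays, with log2 differences from -0.40 to -0.05. Over all 10 enzymes 3 were higher and 0 lower at 6wk, where 8.26% of all genes were higher and 13.4% lower (limma, adjusted p under 0.05 over 17858 genes). In fits that left out an array, 1 was higher without 6wk replicate 1 (Dao), where 4.66% of all genes were. Without P7 replicate 3, 6wk replicate 2 or 6wk replicate 3, 2 were higher, where 3.82%, 4.33% and 4.14% of all genes were. Without P7 replicate 1, 3 enzymes were higher, where 10% of all genes were. After median centring of the arrays 3 were higher and 0 lower, where 11.7% and 9.54% of all genes were. Without P7 replicate 2, which stood apart, 3 were higher and 3 lower (Phgdh, Srr and Shmt1), where 9.56% and 17.2% of all genes were.

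The promoters of the 3 enzymes that rose and of 2 synthesis enzymes are shown because they differ in CpG dinucleotides, the sites where cytosine is methylated and hydroxymethylated. Each window runs from 250 bases before to 50 bases after an annotated start of the gene (RefSeq, build GRCm38.p6), 5′ to 3′ on the gene's strand, with every CpG in capitals. RefSeq gives 3 starts for Dao, of which the most upstream is shown at chr5:114003485-114003784, plus strand. The others lie at chr10:40629761-40630060, plus strand, for Ddo, at chr9:108296655-108296954, plus strand, for Amt, at chr3:98339920-98340219, minus strand, for Phgdh, and at chr11:74925899-74926198, minus strand, for Srr.
Dao: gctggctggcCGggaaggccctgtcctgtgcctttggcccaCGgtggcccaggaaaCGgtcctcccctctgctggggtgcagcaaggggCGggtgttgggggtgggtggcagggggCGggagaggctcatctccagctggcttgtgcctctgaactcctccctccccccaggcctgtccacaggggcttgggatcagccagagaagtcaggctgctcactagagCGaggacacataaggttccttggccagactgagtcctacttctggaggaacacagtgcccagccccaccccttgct
Ddo: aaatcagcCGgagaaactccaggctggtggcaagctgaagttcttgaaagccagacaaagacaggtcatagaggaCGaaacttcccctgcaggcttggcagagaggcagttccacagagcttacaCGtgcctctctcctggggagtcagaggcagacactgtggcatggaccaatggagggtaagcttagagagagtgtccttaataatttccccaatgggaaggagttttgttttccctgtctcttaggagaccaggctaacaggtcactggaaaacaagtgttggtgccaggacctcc
Amt: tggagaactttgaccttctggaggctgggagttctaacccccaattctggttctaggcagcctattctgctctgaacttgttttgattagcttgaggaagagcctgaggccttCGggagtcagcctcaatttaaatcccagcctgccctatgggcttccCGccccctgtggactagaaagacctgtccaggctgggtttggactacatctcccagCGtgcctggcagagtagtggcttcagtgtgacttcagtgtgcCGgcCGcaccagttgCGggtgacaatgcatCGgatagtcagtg
Phgdh: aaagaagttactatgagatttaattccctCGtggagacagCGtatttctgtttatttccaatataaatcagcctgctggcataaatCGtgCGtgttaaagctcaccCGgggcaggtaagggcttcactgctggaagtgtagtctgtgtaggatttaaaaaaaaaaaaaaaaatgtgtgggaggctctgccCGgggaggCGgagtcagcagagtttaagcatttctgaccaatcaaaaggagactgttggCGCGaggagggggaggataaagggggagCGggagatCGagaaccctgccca
Srr: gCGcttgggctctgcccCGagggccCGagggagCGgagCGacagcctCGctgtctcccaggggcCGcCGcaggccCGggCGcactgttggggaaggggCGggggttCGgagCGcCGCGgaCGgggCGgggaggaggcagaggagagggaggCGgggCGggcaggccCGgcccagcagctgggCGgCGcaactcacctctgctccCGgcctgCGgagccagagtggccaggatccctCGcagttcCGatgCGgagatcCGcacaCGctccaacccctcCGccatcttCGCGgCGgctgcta

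The 3 enzymes that rose had the fewest CpG. The Dao windows held 6, 3 and 9, the Ddo window 3 and the Amt window 7, against a median of 7 over 32851 promoter windows of that length. Over the 14056 measured genes with a promoter window, the median in the richest window of a gene was 17. The remaining 7 enzymes had 10 (Gldc), 11 (Phgdh), 17 (Shmt1), 20 and 30 (both starts of Psat1), 24 (Gcsh), 28 (Psph) and 33 (Srr). The Srr window lay in the CpG-rich end of all windows, since 92.3% of them held as few or fewer. The same division was not seen over all genes: 26.6% of 1180 genes that rose had at most 9 CpG in their richest window, against 36.2% of 11004 genes that were not called and 15.6% of 1872 that fell. The limit of 9 was set after the members' values were seen, and no test was made.

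**Figure D1:**
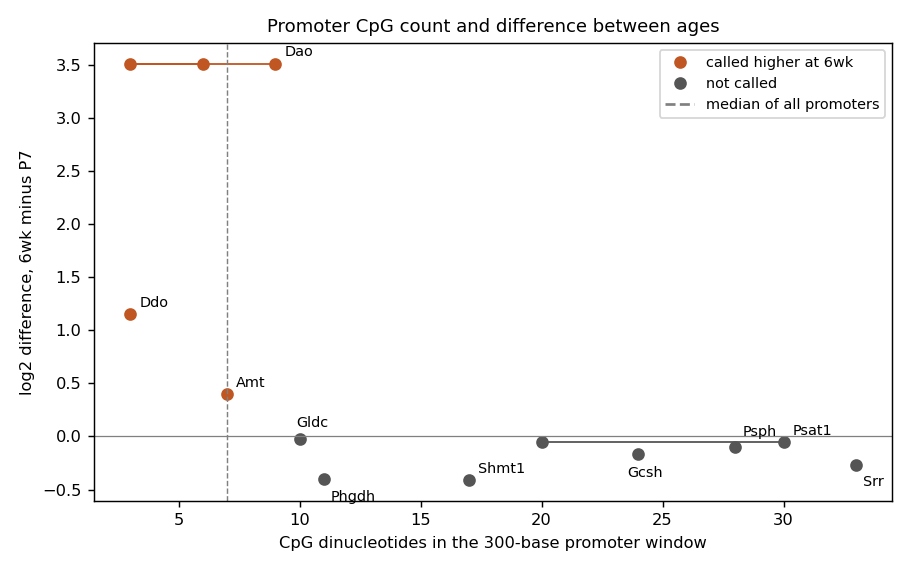
The number of CpG dinucleotides in each 300-base promoter window (horizontal axis) is plotted against the log2 difference between 6wk and P7 of its gene (vertical axis), with the windows of a gene joined by a line. Dao, Ddo and Amt, which rose, had windows of 3 to 9 CpG, and the 7 enzymes that were not called had 10 to 33.

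Motifs were searched on both strands of the 13 windows. The composite element bound by ATF4, TGATGNAA, a factor known to drive serine synthesis genes, was in 0 of 13 windows and in 3.97% of all windows. The letters CCAAT were in 9 of 13 windows, of 9 of the 10 enzymes, Srr being the exception, and in 37.4% of all windows. An enzyme counted if any of its windows held the letters, and no such share per gene was computed over all genes. The letters TATAAA were in the Phgdh window alone, against 13.6% of all windows, and there the hit overlapped a hit of CCAAT.

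Across rows, the Pearson correlation of P7 replicate 2 was 0.952 with replicate 1 and 0.978 with replicate 3, and among the 6wk arrays it was 0.984 to 0.989 (rows are not independent replicates). P7 replicate 3 lay between the other P7 arrays for 67.6% of genes. Genes of dividing granule progenitors, the neuron precursors of the outer cerebellum, were lowest in P7 replicate 2 in 8 of 8 cases, and their log2 summed level was 12.87, 10.95 and 12.40 in P7 replicates 1, 2 and 3 and 9.94 to 10.03 at 6wk. Mature granule neuron markers (6 of 6 lowest in P7 replicate 2) had summed levels of 13.60, 10.62 and 13.05 at P7 and 14.01 to 14.28 at 6wk. In P7 replicate 2 the granule neuron genes Gabra6 (4.91) and Cbln3 (6.28) and the Purkinje cell gene Pcp2 (6.18) lay under the first quartile of that array (7.03), while Zic1 (9.29) and Cbln1 (8.64) lay above it. The Purkinje cell genes Calb1 (9.64), Rgs8 (9.52) and Pvalb (7.80) lay above it as well. Car8, also of Purkinje cells, was under the first quartile in all P7 arrays. Genes listed for the neighbouring midbrain and brainstem had summed levels of 10.40, 12.36 and 11.87 at P7 and 10.30 to 10.79 at 6wk. In this list Slc6a3, Th, Tph2, Slc6a4 and Ddc were highest at P7 in replicate 2, as was Emx1, a forebrain gene. Hoxb3 went the other way, with 9.07, 8.30 and 9.10 in P7 replicates 1, 2 and 3.

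Among the P7 arrays the enzymes followed an order seen in several marker lists, granule markers among them. Summed levels in P7 replicates 1, 2 and 3 were 12.8, 10.9 and 12.2 for Purkinje cells and 12.4, 9.4 and 11.5 for the choroid plexus. For the meninges they were 11.7, 11.2 and 11.6. Lists for oligodendrocyte precursors, microglia and interneurons were highest in P7 replicate 2, as was the midbrain and brainstem list. All 10 enzymes were lowest in P7 replicate 2, as were 40.7% of all genes. Of these, 9 of 10 ran from replicate 1 over replicate 3 to replicate 2, as did 34.1% of all genes. The exception was Gcsh, with 8.45, 8.40 and 8.45 in P7 replicates 1, 2 and 3. Replicate 2 was under replicate 1 by 0.98 for Shmt1, 0.83 for Gldc and 0.82 for Ddo on the log2 scale, the widest gaps among the 10. Of the Bergmann glia and astrocyte markers 9 of 12 were lowest in P7 replicate 2, where Gdf10 and Hopx differed from replicate 1 by -2.75 and -1.46 on the log2 scale, wider gaps than for any of the 10 enzymes. Between ages 4 of the 12 were higher at 6wk and 3 lower, beside 8.26% and 13.4% of all genes. The rises were Etnppl by 4.44, Gjb6 by 1.51, S100b by 1.16 and Aldoc by 1.06. Etnppl was under the first quartile in all 3 P7 arrays. The falls were Fabp7, which fell by 2.41, Gfap by 0.84 and Aqp4 by 0.63. The summed level of the 12 markers was 14.16, 13.83 and 14.06 at P7 and 13.88 to 13.97 at 6wk. Fabp7 and Aldoc added most to it at P7, and Aldoc and Slc1a3 at 6wk. The part of cell composition in these values was not tested, and in whole tissue fewer cells of a type and less RNA per cell cannot be told apart.

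**Figure D2:**
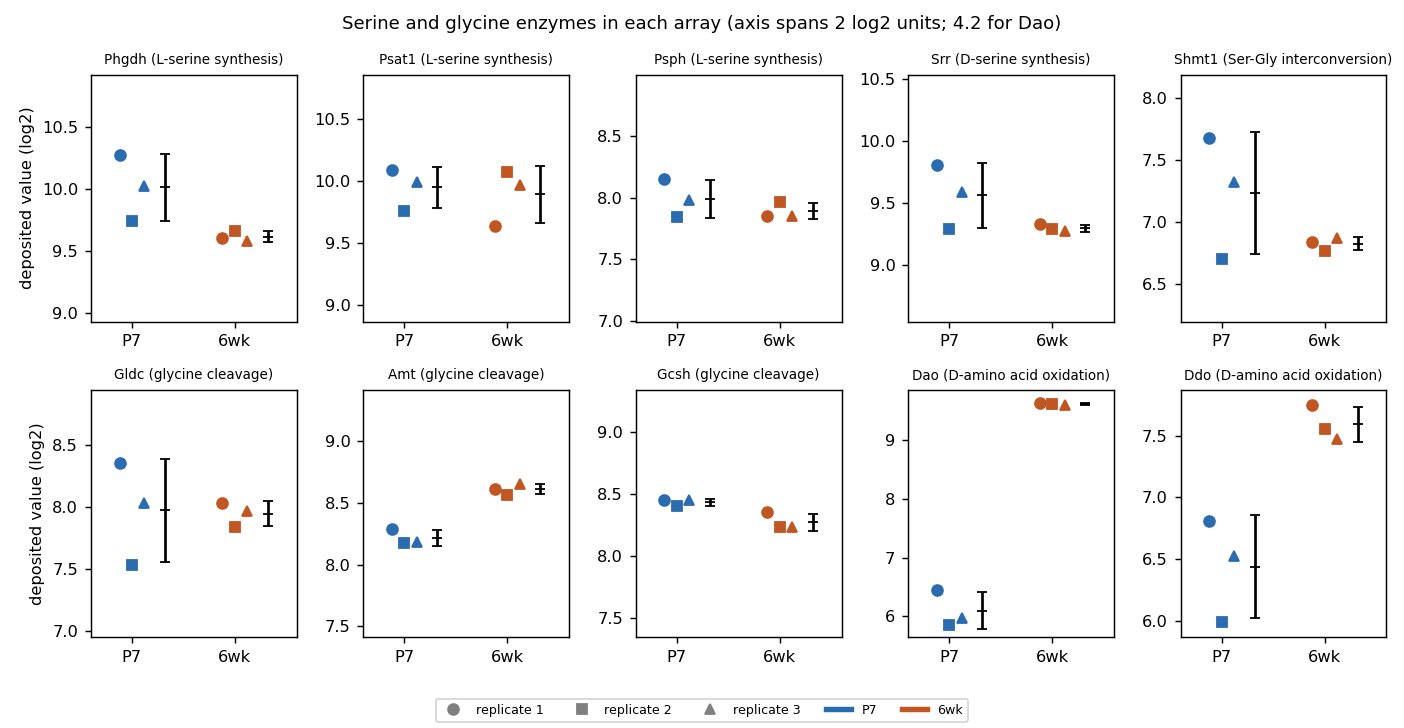
The deposited log2 value (vertical axis, one range per panel, wider for Dao) of each enzyme is plotted for every array, with P7 in blue, 6wk in orange, a marker shape per replicate number and the mean ± SD of 3 arrays in black. Dao, Ddo and Amt lie higher at 6wk with no overlap, and P7 replicate 2 (square) is the lowest P7 array in all 10 panels.

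D-serine breakdown showed the widest change. Dao read 6.46, 5.86 and 5.98 in P7 replicates 1, 2 and 3 and 9.63, 9.60 and 9.60 in the 6wk arrays. The 6wk arrays were nearly equal (9.61 ± 0.02, SD, n = 3), the P7 arrays less so (6.10 ± 0.32, SD, n = 3), and 3.14 log2 units separated the groups. The log2 difference was 3.51 (SE 0.16, 95% interval 3.12 to 3.90, limma adjusted p = 0.000419), and 12 of 17858 genes (0.0672%), Dao among them, differed by as much in either direction. Dao was called in all 6 fits that left out an array (log2 difference 3.39 to 3.69, adjusted p up to 0.00759). All 3 P7 values lay under the first quartile of their array (6.91 to 7.03). The fold is uncertain for so dim a P7 signal, since no background level was analysed here.

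Ddo, the companion oxidase for D-aspartate, read 6.81, 5.99 and 6.53 at P7 and 7.75, 7.55 and 7.47 at 6wk. The groups did not overlap, and 16.4% of all genes were likewise higher without overlap. The log2 difference was 1.15 (SE 0.21, 95% interval 0.64 to 1.66, limma adjusted p = 0.0125), and 0.92 without P7 replicate 2. In the fit without 6wk replicate 1 Ddo was not called (1.07, adjusted p = 0.0555). As for Dao, the 3 P7 values were under the first quartile of their array.

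Srr, which makes D-serine, read 9.81, 9.28 and 9.59 at P7 and 9.33, 9.29 and 9.27 at 6wk. P7 replicate 2 was at the 6wk level and the other P7 arrays were above it. With all arrays Srr did not pass (log2 difference -0.27, SE 0.14, 95% interval -0.60 to 0.07, limma adjusted p = 0.229). Without P7 replicate 2 it fell by 0.40 (adjusted p = 0.0297), and with P7 replicate 1 alone at P7 by 0.51 (adjusted p = 0.0245), a fit that takes its spread from the 6wk arrays. In each array Dao was set against Srr, both as log2 values centred on their own mean over the 6 arrays. The difference Dao minus Srr was -1.78, -1.85 and -2.04 in P7 replicates 1, 2 and 3 and 1.88 to 1.90 at 6wk. P7 replicate 2 was within the range of the other P7 arrays here, although both genes were lowest in it.

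Of the L-serine synthesis enzymes Phgdh, which catalyses the first step, read 10.28, 9.74 and 10.03 at P7 and 9.60, 9.66 and 9.58 at 6wk. Each P7 array was above each 6wk array, by as little as 0.07 for replicate 2, and 25.7% of all genes were lower at 6wk without overlap. With all arrays it did not pass (log2 difference -0.40, SE 0.14, 95% interval -0.75 to -0.05, limma adjusted p = 0.0991). Without P7 replicate 2 Phgdh fell by 0.54 (adjusted p = 0.0149).

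The array holds 3 rows annotated to Phgdh, and they did not move alike. The row used here and a row of nearly the same level (mean over 6 arrays 9.82 and 9.64) differed by -0.40 and -0.51. The dimmest row (mean 7.96) read 8.22, 7.56 and 7.97 at P7 and 8.30, 7.97 and 7.77 at 6wk, a log2 difference of 0.10 (limma adjusted p = 0.791 over all rows). Which stretch each row measures, and whether copies of the gene share its probes, was not analysed here.

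Psat1, the aminotransferase of the second step, read 10.09, 9.76 and 9.99 at P7 and 9.63, 10.07 and 9.97 at 6wk. The groups overlapped throughout (log2 difference -0.05, SE 0.15, 95% interval -0.41 to 0.30, limma adjusted p = 0.831). Psph, the phosphatase of the last step, read 8.15, 7.84 and 7.98 at P7 and 7.85, 7.97 and 7.86 at 6wk, a log2 difference of -0.10 (95% interval -0.36 to 0.15, limma adjusted p = 0.547). The intervals hold differences of up to 0.41 and 0.36 in the lower direction, so the test does not show equal levels. Neither was called without P7 replicate 2 (adjusted p = 0.508 and 0.237).

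Shmt1, the cytosolic serine hydroxymethyltransferase, had the widest spread among the P7 arrays, with 7.68, 6.70 and 7.32 against 6.83, 6.77 and 6.87 at 6wk. P7 replicate 2 was under every 6wk array and the other P7 arrays above them. Shmt1 lay under the first quartile in 4 of the 6 arrays, P7 replicate 2 and all 6wk arrays. With all arrays it differed by -0.41 (SE 0.24, 95% interval -0.98 to 0.16, limma adjusted p = 0.271), and without P7 replicate 2 it fell by 0.67 (adjusted p = 0.0125). Shmt2, the mitochondrial form, read 9.12, 8.28 and 8.86 at P7 and 8.55, 8.55 and 8.49 at 6wk, the same pattern. It differed by -0.22 with all arrays (limma adjusted p = 0.507) and fell by 0.46 without P7 replicate 2 (adjusted p = 0.0259).

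The subunits of the glycine cleavage system did not move together. Amt, the aminomethyltransferase that passes a carbon unit to folate, read 8.29, 8.17 and 8.18 at P7 and 8.61, 8.57 and 8.65 at 6wk, with no overlap. Its log2 difference was 0.40 (SE 0.08, 95% interval 0.20 to 0.59, limma adjusted p = 0.0181). Amt was not called in 4 of the 6 fits that left out an array, those without P7 replicate 3 (adjusted p = 0.0931) or 1 of the 6wk arrays (0.0582 to 0.0872). These 4 fits called 9.22% to 11.3% of all genes in either direction, against 21.7% with all arrays. The difference of Amt stayed between 0.38 and 0.44 in all 6. With P7 replicate 1 alone it was 0.32 (adjusted p = 0.0785).

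Gldc, the glycine decarboxylase that starts cleavage, read 8.36, 7.53 and 8.03 at P7 and 8.04, 7.84 and 7.97 at 6wk. All 6wk arrays lay within the P7 range (log2 difference -0.03, SE 0.21, 95% interval -0.53 to 0.47, limma adjusted p = 0.943). Gcsh, the carrier protein, was the steadiest of the 10 at P7 and read 8.35, 8.23 and 8.24 at 6wk. Each 6wk array was under each P7 array, but the log2 difference of -0.16 (95% interval -0.36 to 0.03) did not pass (adjusted p = 0.210). Dld, the lipoamide dehydrogenase that the system shares with other complexes, differed by 0.13 and did not pass (adjusted p = 0.349).

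**Figure D3:**
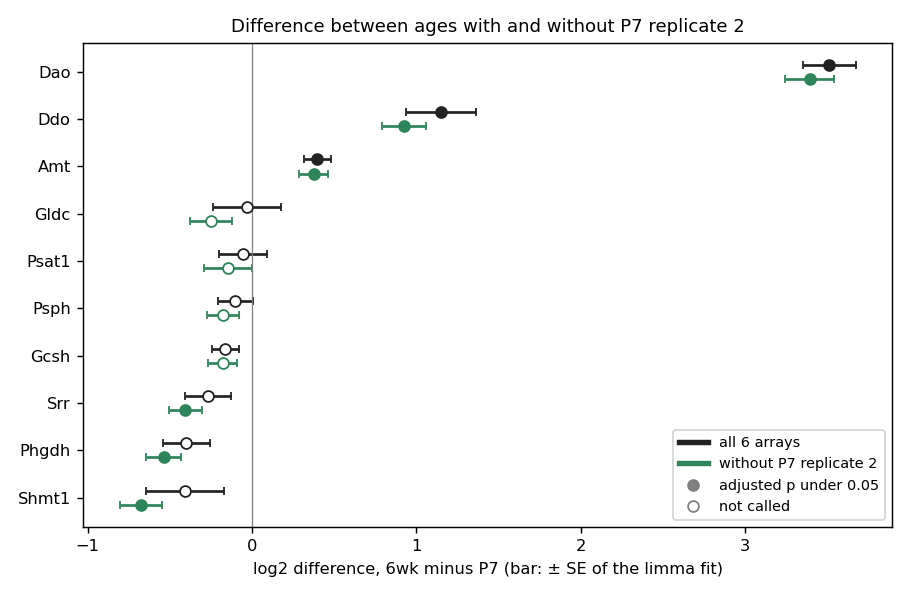
The log2 difference between 6wk and P7 (horizontal axis, ± SE of the limma fit) is plotted per enzyme for all 6 arrays in black and without P7 replicate 2 in green, filled where the adjusted p is under 0.05. Dao, Ddo and Amt were called both ways, and Phgdh, Srr and Shmt1 in the fit without P7 replicate 2 alone.

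Synthesis and breakdown enzymes were compared through their changes, since levels of different probes cannot be compared. The median log2 difference between ages was 0.40 over the 5 breakdown enzymes (Dao, Ddo, Gldc, Amt and Gcsh) and -0.18 over the 4 synthesis enzymes, beside -0.05 over all genes. Breakdown minus synthesis was thus 0.58. The breakdown median was the value of Amt, the middle of the 5. Each enzyme was then centred on its mean over the 6 arrays, and the median over each side was taken per array. Breakdown minus synthesis was -0.42, -0.31 and -0.35 in P7 replicates 1, 2 and 3 and 0.36, 0.21 and 0.36 at 6wk. The P7 arrays were all low and the 6wk arrays all high, P7 replicate 2 no longer stood apart, and the SD over 3 arrays was 0.06 at P7 and 0.09 at 6wk.

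The direction of that balance held without Dao, though it was smaller: -0.31, -0.21 and -0.20 at P7 and 0.29, 0.07 and 0.25 at 6wk. Ddo, for D-aspartate, was still among the breakdown enzymes there, and neither balance was set against a share over all genes. Between D-amino acid oxidation (the median of Dao and Ddo) and Srr the balance was -1.18, -1.37 and -1.35 at P7 and 1.36, 1.28 and 1.26 at 6wk. Between the cleavage enzymes Gldc, Amt and Gcsh and the L-serine enzymes Phgdh, Psat1 and Psph the ages overlapped, with -0.11, -0.14 and -0.003 at P7 and 0.28, -0.15 and 0.10 at 6wk. The entry enzymes of these routes gave a narrow separation: Gldc minus Phgdh was -0.06, -0.35 and -0.14 at P7 and 0.28, 0.03 and 0.25 at 6wk. Of all other genes, 40.9% were likewise higher against Phgdh at 6wk without overlap, so this is near the background.

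**Figure D4:**
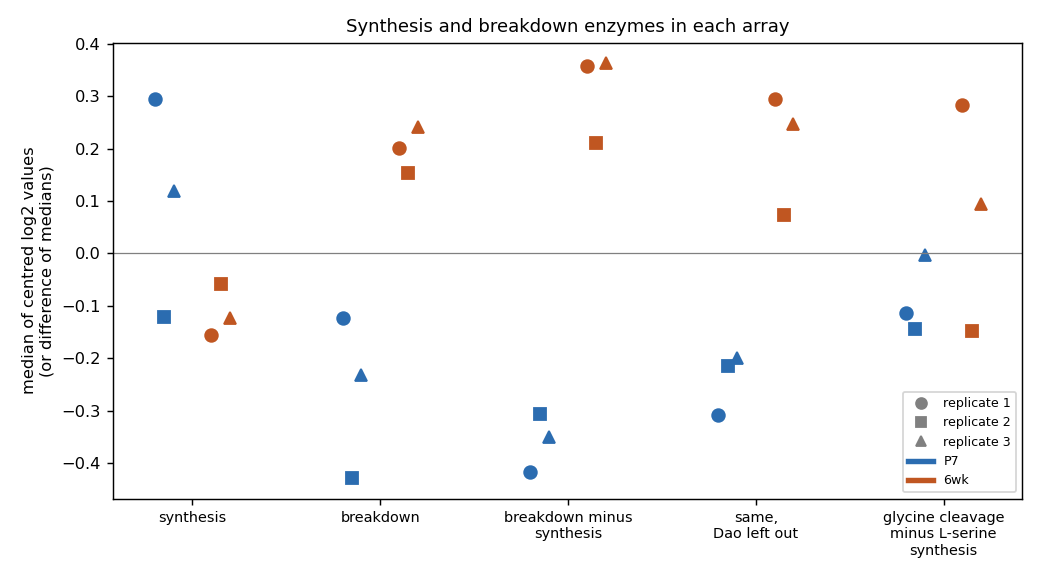
For each array (P7 blue, 6wk orange, a marker shape per replicate number) the vertical axis gives the median of log2 values centred per gene over the synthesis and the breakdown enzymes, and the difference of such medians for 3 contrasts. Breakdown minus synthesis is below 0 in all P7 arrays and above 0 in all 6wk arrays, also with Dao left out, while glycine cleavage minus L-serine synthesis overlaps between ages.

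The genes whose pattern over the 6 arrays was most like that of Dao were Chil5, Aqp6 and Exph5. Likeness was the root mean square difference of log2 values centred on each gene's mean, which was 0.26, 0.28 and 0.30. Chil5, a chitinase-like protein, read 5.88, 5.22 and 5.10 at P7 and 8.82, 8.31 and 8.41 at 6wk. Aqp6, an aquaporin, and Exph5, an exophilin, rose by log2 differences of 3.20 and 3.02 (limma adjusted p = 0.00193 and 0.00125). The genes most like Phgdh were Kirrel2, Cxcl12 and Zcchc14, at 0.02, 0.02 and 0.03. Cxcl12, a chemokine, read 9.29, 8.74 and 9.10 at P7 and 8.62, 8.70 and 8.61 at 6wk. Like Phgdh, none of these 3 passed with all arrays (limma adjusted p from 0.0851 to 0.105).

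Transporters that carry serine and glycine had 4 falls and 0 rises among 14 measured (median log2 difference -0.08), where 13.4% of all genes were lower and 8.26% higher (median -0.05). The counts were the same without P7 replicate 2, where these shares were 17.2% and 9.56%. Slc38a5, a glutamine transporter that also takes serine and glycine, read 9.14, 9.10 and 9.12 at P7 and 7.46, 7.43 and 7.41 at 6wk. Its arrays were close within each age and it fell by 1.69 (SE 0.07, limma adjusted p = 0.000419). Slc1a4, the neutral amino acid transporter ASCT1, read 10.81, 11.17 and 11.00 at P7 and 9.20, 9.64 and 9.49 at 6wk and fell by 1.55 (SE 0.15, adjusted p = 0.00162). The remaining falls, named after their values were seen, were Sfxn1, a mitochondrial serine carrier, by 0.77, and Slc1a5, the transporter ASCT2, by 0.60. Slc1a5 was not called in 2 of the 6 fits that left out an array (adjusted p up to 0.0544).

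Of the transporters, Slc7a10 and Slc6a9 were named whatever their result, and neither passed. Slc7a10, which exchanges D-serine, read 9.56, 10.04 and 9.86 at P7 and 9.57, 9.71 and 9.79 at 6wk (log2 difference -0.13, limma adjusted p = 0.571). Slc6a9, the glial glycine transporter GLYT1, read 10.62, 11.15 and 10.95 at P7 and 11.05, 11.22 and 11.25 at 6wk (0.27, adjusted p = 0.254). Both were highest at P7 in replicate 2, the opposite of the 10 enzymes.

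Subunits of NMDA receptors, on which D-serine or glycine acts as co-agonist, changed in both directions. They had 2 rises and 1 fall among 5 measured (median 0.12), beside 8.26% and 13.4% of all genes. Grin2b read 9.99, 10.28 and 10.01 at P7 and 7.74, 8.31 and 8.05 at 6wk, while Grin2c and Grin2a rose by 2.47 and 0.72 (limma adjusted p = 0.00121 and 0.00899). Grin1 was not analysed here.

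Folate enzymes, which take up carbon units from serine and glycine, fell in 2 of 14 measured and rose in 0 (median -0.10), near the 13.4% of all genes that were lower. Mthfd2l, a mitochondrial methylenetetrahydrofolate dehydrogenase, fell by 1.16 (SE 0.15, limma adjusted p = 0.00434). Aldh1l1, a formyltetrahydrofolate dehydrogenase of astrocytes, fell by 0.79 (SE 0.13, adjusted p = 0.00953), a call that did not hold without P7 replicate 3 (0.0506). Without P7 replicate 2, where 17.2% of all genes were lower, 4 fell: also Tyms, thymidylate synthase, which differed by -1.16 with all arrays (adjusted p = 0.0589) and fell by 1.58 without that array, and Ggh, a folate hydrolase, which fell by 0.50 without it. Tyms and Ggh were named after their values were seen.

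Other enzymes that use serine or glycine rose in 2 and fell in 3 of 22 measured (median -0.10), near the 8.26% and 13.4% of all genes, and in 2 and 1 after median centring, where 11.7% and 9.54% of all genes did. Gnmt, glycine N-methyltransferase, read 7.09 ± 0.11 (SD, n = 3) at P7 and 7.71 ± 0.03 (SD, n = 3) at 6wk and rose by 0.62 (SE 0.09, limma adjusted p = 0.00571), also in all 6 fits that left out an array. Gatm, which starts creatine synthesis from glycine, rose by 0.62 (SE 0.15, adjusted p = 0.0277). Gamt, the next enzyme of that route, named after its value was seen, differed by -0.64 (adjusted p = 0.140) and fell by 0.95 without P7 replicate 2 (adjusted p = 0.00539). Sptlc2, a serine palmitoyltransferase subunit, fell by 0.46 (adjusted p = 0.00938). The falls of Bhmt (-0.58), a betaine methyltransferase, and of Pipox (-0.44), a sarcosine oxidase named after its value was seen, were each lost in at least 4 of the 6 fits that left out an array. Gatm lost its call in 3 and Sptlc2 in 2 of those fits.

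ATF4 and other targets of this stress and amino acid response factor had 1 rise and 4 falls among 15 measured (median 0.07), beside 8.26% and 13.4% of all genes. After median centring there were 3 rises and 2 falls, and the shares over all genes moved the same way, to 11.7% and 9.54%. Slc7a11, the cystine-glutamate exchanger, named after its value was seen, fell by 0.58 (limma adjusted p = 0.00605), also in all 6 fits that left out an array and after centring. Aldh18a1, of proline synthesis, and Ddit4, an mTOR inhibitor, differed by -0.67 and -0.64 and lost their calls after centring (adjusted p = 0.0503 and 0.0696) and in at least 4 of the 6 fits without an array. Ddit3, a stress transcription factor, differed by 0.36 with all arrays and was called in 1 of the 6 fits that left out an array (adjusted p = 0.0698 without P7 replicate 2). Slc7a5 (-0.41), a large amino acid transporter named after its value was seen, lost its call in 4 of the 6 fits.

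Peroxisome genes, for the organelle that holds Dao and Ddo, rose in 2 and fell in 3 of 15 measured (median -0.03), with 0 and 3 without P7 replicate 2 and 2 and 1 after median centring. Over all genes the shares were 8.26% and 13.4%, 9.56% and 17.2% without that array, and 11.7% and 9.54% after centring, so these counts were near the background. Cat, the peroxisomal catalase that removes the hydrogen peroxide these oxidases make, read 10.85, 10.86 and 10.86 at P7 and 10.03, 10.05 and 10.13 at 6wk. It fell by 0.79 (SE 0.08, limma adjusted p = 0.00167), also in all 6 fits that left out an array. Pex10 (0.34), Pex6 (0.29), Pex19 (-0.36) and Pex5 (-0.30), factors of protein import and membrane assembly, the last named after its value was seen, each lost their call in at least 4 of the 6 fits. Without P7 replicate 2 the 3 falls were Cat, Pex19 and Pex2 (-0.44, adjusted p = 0.0291, named after its value was seen).

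Among 6 measured genes for binding partners of serine racemase 1 rose and 1 fell (median 0.06), beside 8.26% and 13.4% of all genes. Grip1, a synaptic scaffold that activates the racemase, read 8.26, 8.71 and 8.43 at P7 and 6.72, 7.22 and 7.13 at 6wk and fell by 1.44 (SE 0.18, limma adjusted p = 0.00327). Cacng2, stargazin, differed by 0.38 (adjusted p = 0.0371) and lost its call in 5 of the 6 fits that left out an array. Without P7 replicate 2, 0 rose and 2 fell, where 9.56% and 17.2% of all genes did. The second fall was Disc1 (-0.30, adjusted p = 0.0404), a scaffold named after its value was seen.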

How the data were processed

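Total RNA was depleted of ribosomal RNA and hybridised to Affymetrix exon arrays, per the labels' protocols. The deposited values are log2 expression, for which the submitters' processing notes list RMA, Affymetrix Power Tools and mm9, without versions. Filters are not given in the sources used. Of 23750 rows, 18463 have 1 symbol, 1799 several and 3488 none in the array annotation, and rows with several were not used. For 471 genes with more than 1 row the row of the highest mean was kept.

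Each of 17858 genes was fitted with limma 3.58.1 (R 4.3.3) for 6wk minus P7, two-sided and unblocked, and a gene was called at a Benjamini-Hochberg adjusted p under 0.05. In simulated data for this comparison (200 of 17858 genes changed, 3 arrays per age) 67% of 2-fold and 94% of 4-fold changes were called, and 4.73% of calls were false. The simulation used independent arrays and the same SD at both ages for each gene. It therefore does not describe the uneven P7 arrays. The number of arrays limits the precision. Fits without P7 replicate 3 or 1 of the 6wk arrays called 9.22% to 11.3% of all genes, against 21.7% with all arrays. Without P7 replicate 1 or 2 the share was 26.3% or 26.8%. Calls of single genes lost in fits that left out an array stand beside these shares.

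The members, lists and tests were chosen with earlier results of these data known. Named beyond the members are up to 2 rises and 2 falls per related list that were called without overlap, a few receptors and transporters whatever their result, and 3 genes nearest in pattern to Dao and to Phgdh. The alternatives were other scalings, array weights, filters, row choices, a replicate block and left-out arrays. Promoters come from RefSeq (GRCm38.p6), and all 10 members matched by symbol.

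Replicate numbers were not treated as pairs: deviations of same-numbered arrays correlated at 0.27, 0.14 and -0.06.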

Additional observations from a re-analysis of the deposited data

How the results depend on the processing

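Dao was called under all 15 alternatives. The count of enzymes higher at 6wk ranged from 1 (without 6wk replicate 1) to 3 in fits that left out an array, was 2 with the replicate block and 2 with P7 replicate 1 alone, and 3 under the other alternatives. Over all genes, 3.82% to 10% were higher and 5.4% to 17.2% lower in fits that left out an array. With the block 6.71% of all genes were higher. With the block, where numbers do not pair the arrays, Amt had an adjusted p of 0.0521, and no other call among the 10 changed. The count lower at 6wk ranged from 0 to 3 in fits that left out an array (3 without P7 replicate 2), and was 3 with P7 replicate 1 alone and 4 with array weights, which gave P7 replicate 3 a weight of 8.76 and called 52.8% of all genes. The balance of breakdown against synthesis (0.58) ranged from 0.52 to 0.67 in fits that left out an array. It was 0.71 with P7 replicate 1 alone, 0.66 with Shmt1 counted as synthesis, 0.50 without Srr and 1.18 as a mean. It was 0.37 with Shmt1 counted as breakdown, without Ddo, or without Dao, the last added after the data were seen. Of the uncalled genes 3 changed sign: Psat1 (-0.15 to 0.074 in fits that left out an array, 0.043 after median centring, 0.030 after quantile normalization), Psph (0.003 after quantile normalization) and Gldc (-0.25 to 0.16 in fits that left out an array, 0.070 and 0.096 after the same scalings). Centring moved the calls over all genes from 1475 higher and 2395 lower to 2097 and 1704. The cause of these changes was not tested.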
